A study of Homo sapiens with 2 samples.

Results

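The peaks described here come from the iCLIP of DDX18 in H9 human embryonic stem cells and were annotated to the 3′ untranslated regions (3′ UTRs) of messenger RNAs. They were chosen as every deposited peak whose annotation places it in a 3′ UTR, with each position on the hg19 genome build and strand counted once. This gave 2955 of 16095 peak positions, or 18.4% (exact 95% binomial interval 17.76 to 18.97, which covers counting error only). The gene named for a peak is the gene in which the authors called it. They belonged to 1879 genes by that call. Of 20056 protein-coding genes, 1845 had at least 1 such peak, a share of 9.2% that serves as the background for the gene lists described later.

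The 3′ UTR is the stretch of a messenger RNA that follows the stop codon and ends at the poly(A) tail. Ribosomes do not normally travel along it, and RNA-binding proteins and microRNAs that settle there control how long the message lasts, where it is kept and how often it is translated. In iCLIP, ultraviolet light fixes a protein to the RNA it touches, the protein is pulled down, and the RNA fragments that come with it are sequenced, so that reads pile up near the contact.

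DDX18 belongs to the DEAD-box family of RNA helicases, is found in the nucleolus and takes part in ribosome production. The study asked which RNA it binds in H9, an established line of human embryonic stem cells. The only group held 2 samples, replicates 1 and 2, of cells expressing DDX18 with a 3XFlag tag. Cells grew under normal culture on a layer of inactivated mouse fibroblasts, were exposed to 160 mJ/cm2 of 254 nm light, and DDX18 was pulled down through the tag. The labels do not say what drove the tagged protein or whether the samples came from separate cultures. No input or untagged sample was used here, and both samples share 1 peak list. No value below therefore has an error between samples, no groups were compared, and the reads per sample are unknown. A peak's height is a whole number given by the authors, with no correction for the amount of each RNA, so a tall peak and an abundant RNA cannot be told apart.

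Peaks in 3′ UTRs had about the same height as peaks in coding exons, apart from a few very tall members. The median height was 8 (quartiles 6 and 12) in 3′ UTRs, 9 (6 and 12) over 7512 coding exon peaks and 6 over 2965 intron peaks. A height of 20 or more was reached by 297 of the 3′ UTR peaks, or 10.1% (8.99 to 11.2), and by 9.31% (8.66 to 9.98) of coding exon peaks. At the top, 12 of the 3′ UTR peaks and 6 of the coding exon peaks stood at 100 or more, with maxima of 3529 and 178. The 3529 and the next, 1269, stood apart, and the third highest 3′ UTR peak was 188, near the coding maximum. Summed over all positions, 3′ UTR peaks held 5.9% of the height of the list.

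**Figure D1:**
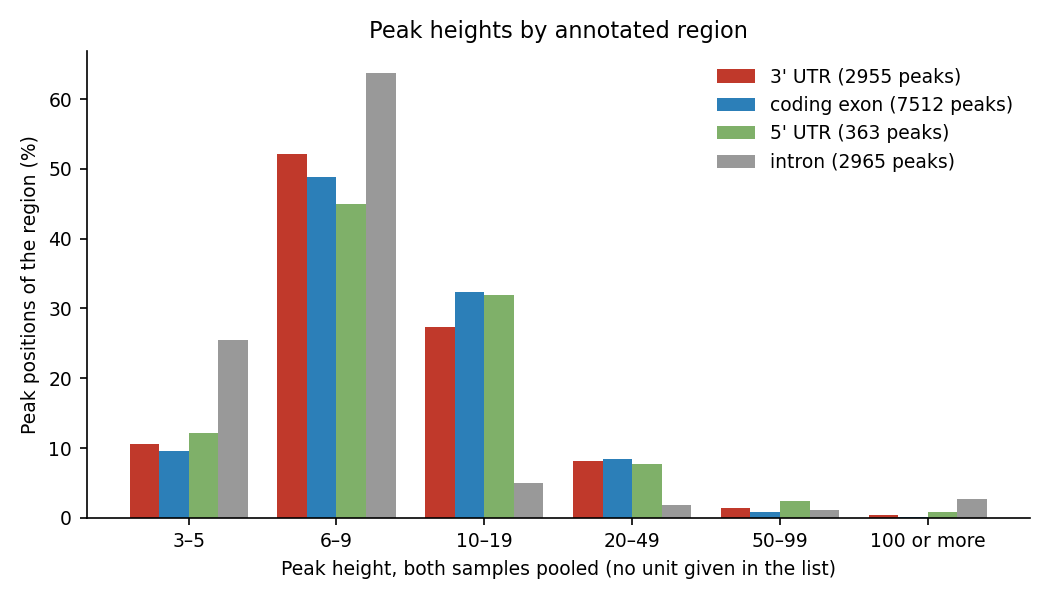
Share of peak positions (%) in each band of peak height, for 3′ UTRs, coding exons, 5′ UTRs and introns, both samples pooled. The 3′ UTR and coding exon bars lie close together, with most peaks of both between 6 and 19, whereas most intron peaks lie below 10.

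The width of a 3′ UTR peak was 11 nt at the median (quartiles 4 and 20), and 251 peaks were 1 nt wide. The last exon of the annotated transcript held 2951 of the positions (99.9%). The called gene was the gene of the annotated transcript at 2870 positions. The other 85 were called in another gene or had an annotated transcript that matched no gene of the RefSeq table (15 entries). Of 2313 positions whose annotated gene had a known strand, 31 lay on the opposite strand and so not in that message. At 59 positions the same peak was listed under several genes, up to 22 of them. That case was the gamma-protocadherin cluster, whose genes encode cell adhesion proteins and share their last exons: its 4 peaks, of heights 23, 13, 10 and 7, were listed under 22, 22, 22 and 19 genes. Peaks next to the end of a transcript carry a separate label (TTS), and those 882 positions are not among the members even where they touch a 3′ UTR.

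Each peak also carries an expected height, which was a single value for every one of the 6695 called genes, and a p-value. The height was 85.7 times the expected height at the median of 3′ UTR peaks (quartiles 40.9 and 160) and 77.8 times at the median of coding exon peaks. The lowest height in the list rose with the expected height. Among 3′ UTR entries in genes expected at 0.05 or less, the lowest listed height was 3 and the median 6, whereas in genes expected above 1 the lowest was 12 and the median 31. The number of listed 3′ UTR peaks per gene was 1.28 in the former genes and 3.44 in the latter. Heights and peak numbers of different genes thus moved together with a value that belongs to the gene, and its part in them was not tested.

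Most genes had a single 3′ UTR peak. There were 1290 genes with 1 peak, 319 with 2, 192 with 3 or 4, 65 with 5 to 9 and 13 with 10 or more. Several peaks were listed in 31.3% of the genes (29.3 to 33.5), against 40.7% of the 3218 genes with a coding exon peak. Neighbouring peaks in 1 exon lay 274 nt apart at the median in 3′ UTRs (quartiles 158 and 570, 1106 gaps) and 149 nt apart in coding exons (697 gaps). The length of exon open to peaks in each region was not measured.

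Genes with more 3′ UTR peaks more often had coding exon peaks as well. The share with a coding exon peak was 41.0% (38.3 to 43.7) among genes with 1 peak, 55.2% with 2, 73.4% with 3 or 4 and 96.9% with 5 to 9, and all 13 genes with 10 or more had one. Over all 1879 genes the share was 49.1% (46.8 to 51.4), and 737 genes had peaks in their 3′ UTR and nowhere else. Of the 78 genes with at least 5 peaks, 2 had no coding exon peak: CNN2, an actin-binding calponin, with 6 peaks, and FGFBP3, a secreted binding protein of fibroblast growth factors, with 5. Genes listed under the same shared peaks were each counted in all these numbers. The 78 include a set of 5 genes called at the same peaks, which are annotated to other genes, and the 737 include gamma-protocadherins. Since peaks per gene rose with the expected height, as given above, the part of gene abundance in these shares was not tested.

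**Figure D2:**
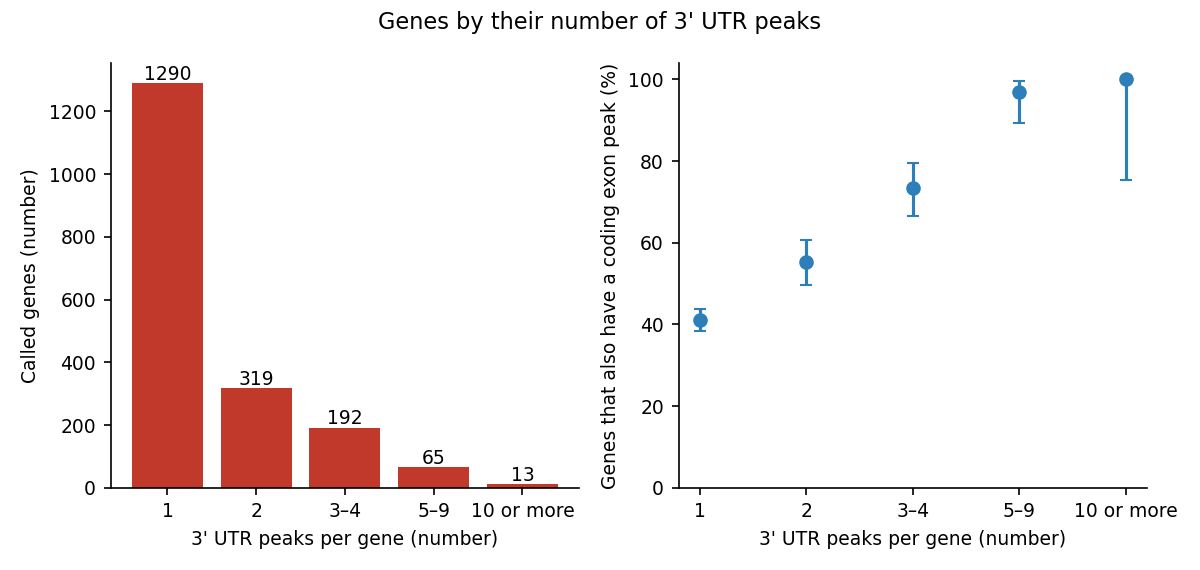
Left, number of genes with 1, 2, 3 to 4, 5 to 9, and 10 or more 3′ UTR peaks. Right, share of those genes (%) with at least 1 coding exon peak, with exact 95% binomial intervals, which climbs from 41.0% to 100%.

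Within a gene, the heights of both regions were close. In the 922 genes with both kinds of peak, the highest 3′ UTR peak stood above the highest coding exon peak in 344, level with it in 142 and below it in 436. The median log2 ratio was 0 (quartiles -0.42 and 0.26, SD 0.55 over genes). In these genes 444 had fewer 3′ UTR than coding exon peaks and 173 had more. In the 254 genes with 1 peak of each kind, the 3′ UTR peak was higher in 105, equal in 72 and lower in 77. Across the stop codon of 1 exon, the 3′ UTR peak nearest to it was higher than the nearest coding peak in 106 exons, equal in 35 and lower in 75, with a median gap of 339 nt.

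The genes with most peaks carried them over long stretches of the 3′ UTR. PODXL, which encodes podocalyxin, a sialomucin on the surface of pluripotent cells, had 19 peaks over 3717 nt, with heights from 19 to 80 and a median of 47. The highest lay at chr7:131188132-131188132 on the minus strand, in exon 8 of 8, and stood 39.0 times above the expected height of 2.05. Its 9 coding exon peaks reached 51. NECTIN1, a cell adhesion molecule, had 17 peaks that were all low and even, from 9 to 15, beside 3 coding exon peaks. KIF1A, a kinesin motor of axonal transport, had 16 peaks of which 1 stood apart: it reached 101 at 228 nt from the 5′-most peak, and the next highest was 41. That peak lay at chr2:241656463-241656464 on the minus strand, in exon 49 of 49, with an expected height of 0.69. KIF1A also had 22 coding exon peaks, none above 26.

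Enzymes of lipid synthesis were among the genes with most peaks or with the highest peaks. SCD, the desaturase that makes monounsaturated fatty acids, had 15 peaks from 37 to 140 with a median of 50, and 8 coding exon peaks of up to 111. Its highest 3′ UTR peak, at chr10:102120963-102120965 on the plus strand in exon 6 of 6, lay 251 nt from the 5′-most one, and the next highest was 77. FADS2, a desaturase of polyunsaturated fatty acids, had 7 peaks with heights of 92, 107, 21, 25, 92, 65 and 41 in 5′ to 3′ order, its lowest peaks, of 21 and 25, lying next to each other.

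SLC7A5, a carrier of large neutral amino acids, had 12 peaks from 13 to 42, all its coding exon peaks being at 19 or below. SLC39A14, a zinc transporter, had 13 peaks from 10 to 19 and coding exon peaks of up to 27. LIN28A, the RNA-binding protein that blocks let-7 maturation in stem cells, had 12 peaks from 13 to 36 against 3 coding exon peaks of up to 19. The highest lay 199.5 nt from the 5′-most peak, at chr1:26753274-26753274 on the plus strand in exon 4 of 4. LARP1, which binds messages of the translation machinery, had 10 peaks from 8 to 26, the highest of them 2806 nt from the 5′-most. The membrane protein TTYH3 had 11 peaks from 14 to 38, the secreted Wnt antagonist SFRP1 had 11 from 11 to 27, and DAG1, the precursor of dystroglycan, had 10 from 10 to 22.

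**Figure D3:**
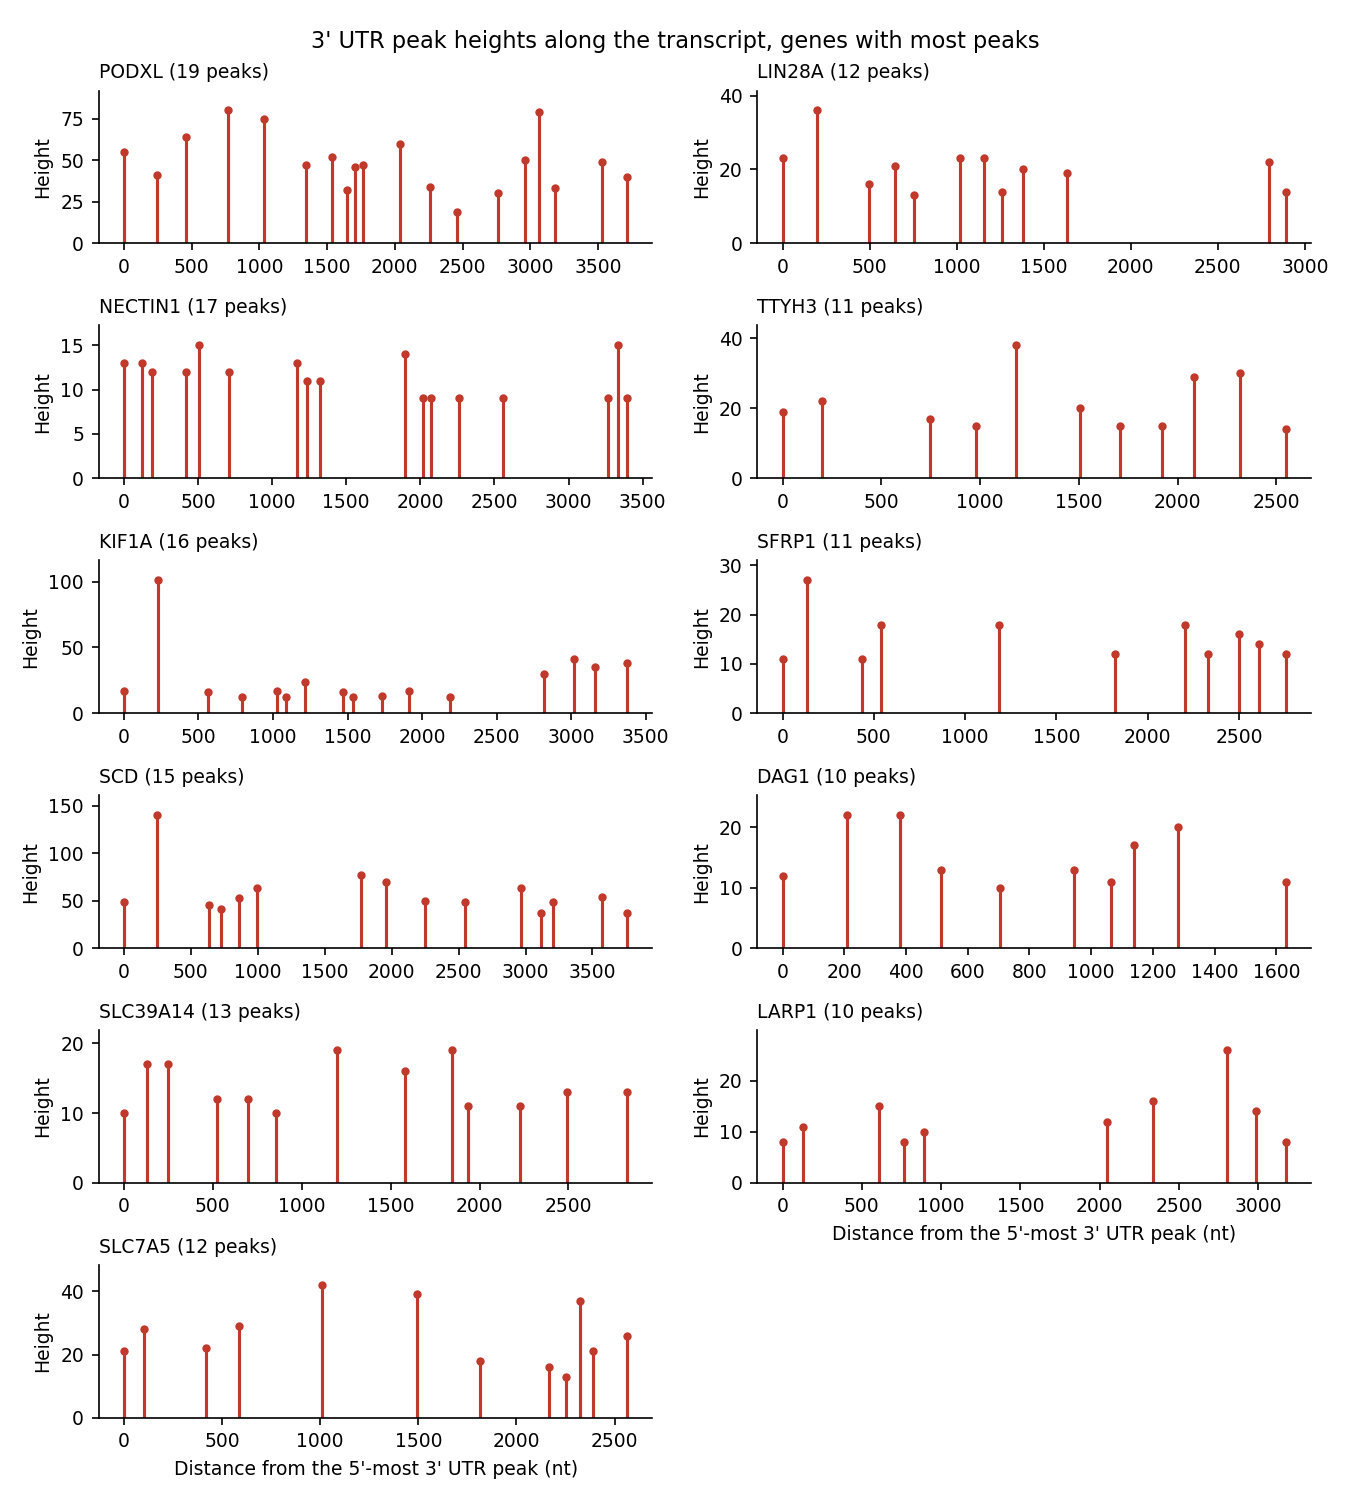
Height of each 3′ UTR peak against its distance (nt) from the 5′-most 3′ UTR peak, for 11 of the 12 genes with most peaks, each on its own scale, both samples pooled. KIF1A and SCD show a single tall peak near the 5′ side (101 and 140), NECTIN1 a row of peaks between 9 and 15.

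In genes with many 3′ UTR peaks, the highest usually lay toward the stop codon side of the peaks. In 71 genes with at least 5 peaks in 1 exon, the highest peak was in the 5′ part, before the midpoint between the outermost peaks, in 55 genes (77.5%, 66.0 to 86.5), after it in 14 and at it in 2. Of the 520 peaks of these genes, 287 (55.2%) lay before the midpoint. The highest peak was 1.5 times the gene's median at the median, and at least 3 times in KIF1A (5.94) and in the glucose transporter SLC2A1 (3.13). Over peaks rather than genes the heights hardly differed along the span. Relative to the gene's median height, the median log2 height was 0 in the first 4 of 5 equal stretches of the span, from 5′ to 3′, and -0.01 in the last. The raw median heights there, which pool genes of different levels, were 15, 15, 14, 13 and 13. In the 528 exons with at least 2 peaks the 5′-most was higher than the 3′-most in 219, equal in 126 and lower in 183. The 219 were 54.5% of the exons where the peaks differed (49.5 to 59.4).

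**Figure D4:**
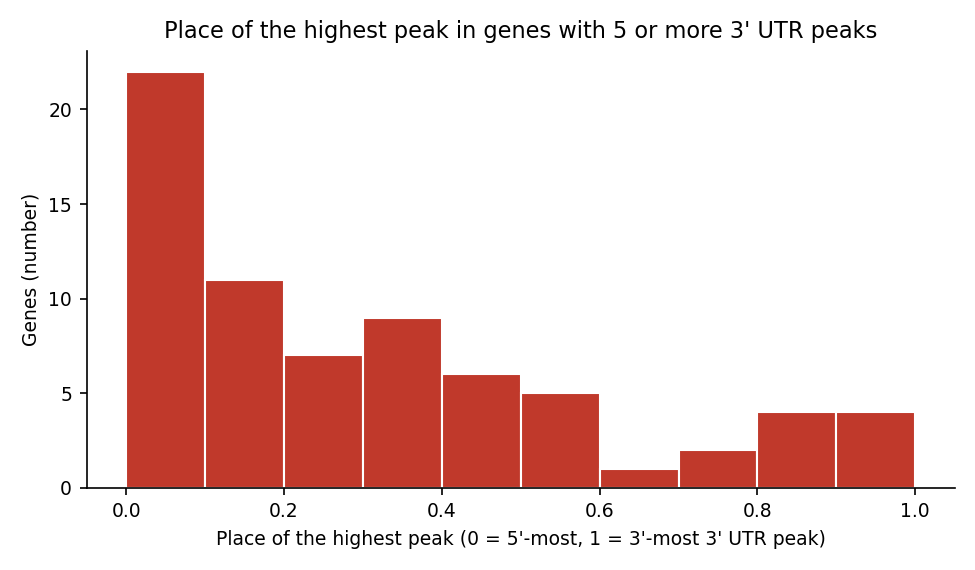
Number of genes by the place of their highest 3′ UTR peak, from 0 at the 5′-most to 1 at the 3′-most peak of the same exon, for the 71 genes with at least 5 peaks; tied peaks take their mean place. The median place is 0.23.

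The tallest 3′ UTR peak, of height 3529 and 1 nt wide, lay in TMEM107, a protein of the ciliary transition zone, on the minus strand at chr17:8076797-8076797. The RefSeq table places the small nucleolar RNA gene SNORD118 inside TMEM107. Whether the peak lies on that gene was not tested, because the table and the peaks use different builds. The next, of height 1269 at chr22:30819317-30819329 on the plus strand, was listed under both SEC14L2, a lipid-binding protein, and MTFP1, a protein of mitochondrial fission, and neither gene had any coding exon peak.

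Below these loci, ACTB, cytoplasmic beta-actin, had 3 peaks of 52, 188 and 128 in 5′ to 3′ order, and its highest coding exon peak was 150. The peak of 188 lay at chr7:5567103-5567103 on the minus strand, in exon 6 of 6, and its expected height was 15.62, far above that of most members (median 0.09). SFRP2, another secreted Wnt antagonist, had peaks of 157 and 41 against a coding maximum of 74. INHBB, a subunit of activin and inhibin, had a single peak of 148, at chr2:121108827-121108834 on the plus strand in exon 2 of 2, and none in its coding exons. EEF2, the elongation factor that moves the ribosome along the message, had peaks of 43, 71 and 127. They lay between 3976193 and 3976474 of chr19, in exon 15 of 15. The small nucleolar RNA gene SNORD37 lies inside EEF2 by the RefSeq table. Other EEF2 peaks, labelled by a non-coding transcript (NR_002602), lay between 3982023 and 3983207, away from the 3′ UTR peaks. The part of SNORD37 in the EEF2 peaks was not tested. FGFBP3 reached 120. PDIA4, a disulfide isomerase of the endoplasmic reticulum, had 1 peak of 107, while its 11 coding exon peaks reached 34.

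Among peaks of height 20 or more, the height over the expected height was largest for the SEC14L2 peak, at 793, with its expected height of 1.6. Some lower peaks had a larger ratio. MOB2 came next at 725, through a peak of height 29 that is annotated to CTSD, the gene of a lysosomal protease. At that height, the other 6 of the 8 highest ratios belonged to 1 peak of height 35 at chr16:30081547-30081548, in the 3′ UTR of the glycolytic gene ALDOA, that was also listed under LOC606724, SLX1A, SLX1B, SULT1A3, SLX1A-SULT1A3 and SLX1B-SULT1A4, among others, with an expected height of 0.06. 

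The 18 gene lists held 662 different genes, of which 184 (27.8%) had a 3′ UTR peak, beside 9.2% of all protein-coding genes. The lists were chosen with earlier results of these data known, so the shares are a description and no support for a difference from the background. RNA levels were not measured here, and their part in these shares was not tested.

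The chosen membrane transporters had a peak in 19 of 29 (65.5%, 45.7 to 82.1). In the whole SLC family of solute carriers the share was lower, at 44 of 386 (11.4%, 8.41 to 15.0). Besides SLC7A5, the glucose transporter SLC2A3 had 8 peaks from 21 to 73, SLC2A1 had 6 from 13 to 72, and the glutamine transporter SLC1A5 had 3 from 43 to 50. Glycolytic enzymes had a peak in 11 of 17 (64.7%, 38.3 to 85.8), and the order of these lists turned at a height of 10 or more, with 12 of 29 transporters and 8 of 17 glycolytic enzymes. Most of these had only 1 each, such as ENO1 at 42, ALDOA at 35, GPI at 32 and LDHB at 24, and 3′ UTRs held 17.3% of all peak positions of this list.

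Messages of mRNA-binding regulators had a 3′ UTR peak in 23 of 56 (41.1%, 28.1 to 55.0). Of their 181 peak positions 63 (34.8%) lay there, beside 18.4% of all positions. LIN28A, LARP1 and IGF2BP1 held 12, 10 and 9 of these 63, so the share rests largely on a few genes. LIN28A led, followed by the stress granule protein G3BP1 with heights of 27, 11 and 8, LARP1, and the splicing regulator PTBP1 with 19 and 16. IGF2BP1, which stabilises its target messages, had 9 peaks from 9 to 13. The microRNA and decay machinery had a peak in 9 of 47 (19.1%, 9.15 to 33.3), an interval that just contains the background of 9.2%. None of these peaks exceeded 9, the height in the helicases DDX6 and UPF1. The deadenylase subunits CNOT6 and CNOT6L had 1 peak each, of 7 and 6.

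Among pluripotency genes 10 of 34 (29.4%, 15.1 to 47.5) had a peak. Of their 71 peak positions 30 (42.3%) lay in 3′ UTRs, beside 18.4% of all positions. LIN28A, which is also among the mRNA-binding regulators, held 12 of these 30. After LIN28A came the transcription factor ZIC2 with 25 and 19, the DNA methyltransferase DNMT3B with 5 peaks from 14 to 22, and CRIPTO, a co-receptor of Nodal, with 18, 14 and 11. No 3′ UTR peak was called in POU5F1, NANOG, SALL4 or SOX2. The 4 positions annotated to the 3′ UTR of SOX2, each of height 6, were listed under SOX2-OT, the non-coding RNA gene in which SOX2 lies. LIN28B had 2 peaks of height 7.

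Ribosomal protein messages had few 3′ UTR peaks, though the interval of the share of genes with one contains the background of 9.2%. Of 84 cytosolic ribosomal proteins, 68 had a peak of some kind and 3 had one in the 3′ UTR (3.57%, 0.743 to 10.1): RPS23 at 23, RPL15 at 21 and 13, and RPL13 at 13. In that list 2.34% of peak positions lay in 3′ UTRs. Peaks labelled TTS do not count as 3′ UTR peaks here, and the length of these 3′ UTRs was not measured. Translation factors had a peak in 9 of 48 (18.8%, 8.95 to 32.6), an interval that also contains the background. After EEF2 these were low, at 15 in EIF3B, 14 and 11 in EIF2S3, and 13 at most in EIF4B. Of the polyadenylated histones, H2AZ1 had a peak of 17 and H2AZ2 one of 6. Selenoproteins, whose messages carry in the 3′ UTR the structure needed to insert selenocysteine, had a peak in 5 of 25. The interval of that share (6.83 to 40.7%) contains the background too. They were led by SELENON with 5 peaks from 11 to 27, SELENOF at 11 and 7, SELENOI at 10 and TXNRD1 at 7 and 6.

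**Figure D5:**
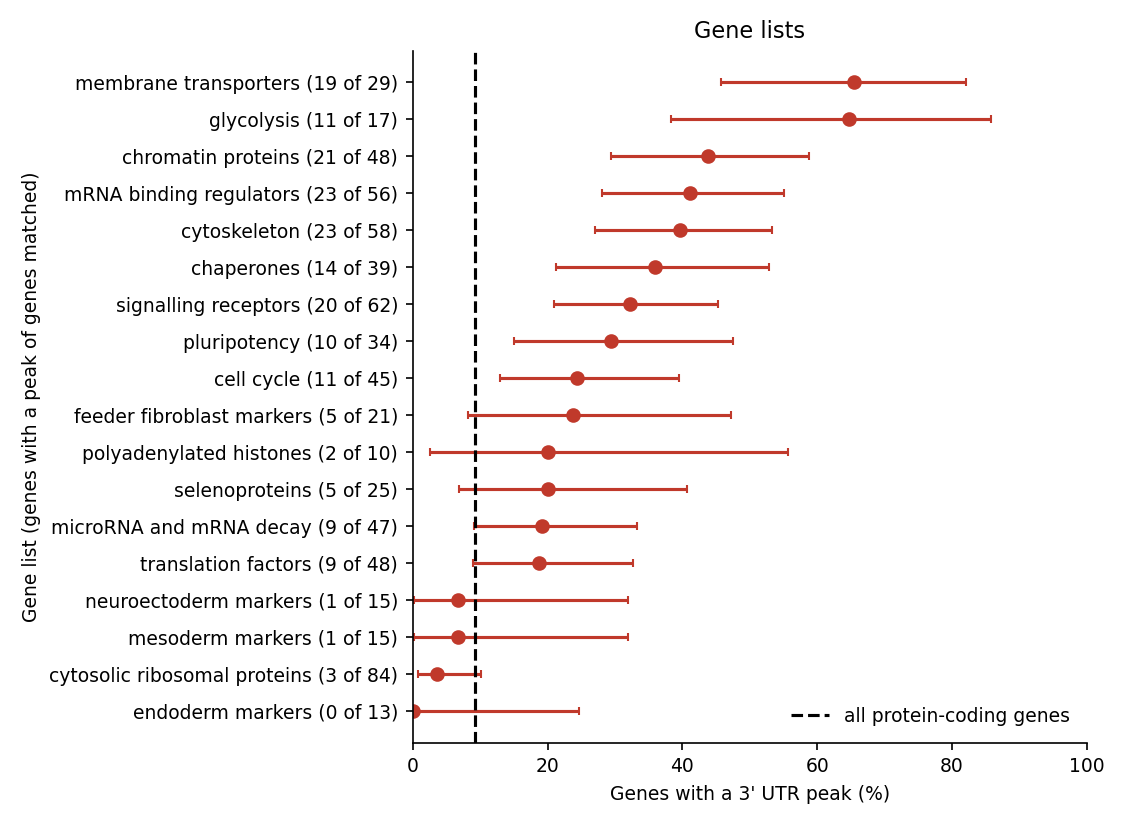
Share of each list's genes with a 3′ UTR peak (%), with exact 95% binomial intervals, and the share over all protein-coding genes (dashed line, 9.2%). Membrane transporters and glycolysis lie highest (65.5% and 64.7%), and cytosolic ribosomal proteins lie at 3.57%, with an interval that contains the dashed line. The lists were chosen with earlier results of these data known.

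The remaining lists lay between these. Chromatin proteins had a peak in 21 of 48 (43.8%), with HMGA1 at 33 and 27, CBX5 at 18 and CHD4 at 17. Cytoskeletal genes had one in 23 of 58 (39.7%), with TUBA1B at 51, TUBB2B at 29 and VCL at 25 after ACTB. Chaperones had one in 14 of 39 (35.9%), and after PDIA4 came the collagen chaperone SERPINH1 at 94, calreticulin (CALR) at 80 and P4HB at 28. Signalling genes had one in 20 of 62 (32.3%), led by SFRP2, SFRP1, CTNNB1, which encodes beta-catenin, at 22, and the glypican GPC4 at 21. Cell cycle genes had one in 11 of 45 (24.4%), among them CCNF at 14, CCNG1 at 12 and MDM2 at 11. The order changed at a height of 10 or more, where chromatin proteins fell to 9 of 48. The counts then were 17 of 58 cytoskeletal genes, 12 of 39 chaperones, 15 of 62 signalling and 6 of 45 cell cycle genes.

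Markers of other cell types were set beside the 9.2% of all protein-coding genes with a 3′ UTR peak. None of 13 endoderm markers (0 to 24.7%), 1 of 15 mesoderm markers (KDR, up to 14) and 1 of 15 neuroectoderm markers (TUBB3, 10) had one, and the intervals of all these lists contain that background. Of 21 fibroblast markers 5 had one (23.8%, 8.22 to 47.2), an interval that also contains it: THY1 at 39, COL6A1 at 26, SPARC at 18, COL5A1 at 11 and COL1A1 at 10. The feeder cells were mouse fibroblasts, and the part of feeder RNA in these peaks was not tested.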

How the data were processed

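The iCLIP data of 2 samples in 1 group came as 1 deposited list of significant peaks. Per the file header, peaks were annotated with HOMER's annotatePeaks.pl on hg19, while FastQC 0.10.1 and BWA appear in the submitters' processing notes. How peaks were called, duplicates treated and significance judged is not given in the sources used here. Heights are a deposited signal in whole numbers. Expected height and p-value, from 1e-100 to 0.05, are also the authors' deposited values, and ratios of height to expected height were computed from them. The distance to the start site, deposited with each peak, was not used in any result.

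Entries were 3131 for the 2955 positions. Names, biotypes and lengths came from the RefSeq table of another build, GRCh38.p14, and matched 1875 of 1879 called genes. Its positions served only to find small RNA genes inside named genes, and none were compared with peak positions. Python 3.11.15, pandas 2.3.3 and scipy 1.17.1 were used, and 9 of the measures were tested on simulated data. The ratio to the expected height and the spacing of peaks were not among them. Intervals are Clopper-Pearson. Genes were named by rule: the 12 with most peaks (ties by summed height), the 12 with the highest peak, the 8 with the highest ratio at a height of 20 or more, and 4 per list. IGF2BP1, CNN2, COL1A1, DDX18, POU5F1, NANOG, SALL4, SOX2, LIN28B and the gamma-protocadherin cluster were named outside it, after their values were seen. Some named genes are not reported here. Members and lists were chosen with earlier results of these data known. Alternatives changed the p and height limits, the counting of entries, merging within 50 nt and the choice of gene.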

Additional observations from a re-analysis of the deposited data

How the results depend on the processing

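The share of peaks in 3′ UTRs was 18.3% with p up to 0.01, 18.7% at a height of 10 or more, 18.2% counting every entry and 18.4% with peaks within 50 nt merged, and 19.5% where only peaks called in the annotated gene were kept. Requiring a height of 10 or more moved most other values: 1104 positions in 580 genes, a median height of 14, a median ratio to the expected height of 38.5, 40.5% of genes with several peaks, 57.8% with a coding exon peak, 44.5% of genes whose 3′ UTR maximum exceeds the coding maximum, and 17.7% of list genes with a peak. With p up to 0.01 the median height was 9. Counting every entry gave a median ratio of 87.5. The place of the highest peak stayed before the midpoint in 74.7% to 79.6% of genes under the 4 alternatives run for it. Of the 18 lists, the number of genes with a peak moved by over 1.5 times in 9 at a height of 10 or more and in 1 with p up to 0.01. The alternatives for the lists, the place of the highest peak, the comparison with coding maxima and the gene of the annotated transcript (except for the number of genes) were chosen after seeing the data. No paired analysis was possible because both samples share 1 pooled list, and leaving out a replicate could not be run for the same reason.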

Other observations

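Further gene groups were looked at after their values were seen, so their counts are a description only. Enzymes of sterol and fatty acid synthesis had a 3′ UTR peak in 21 of 33 (63.6%, 45.1 to 79.6), with a median peak height of 23.5. The whole SLC family of solute carriers had one in 44 of 386 (11.4%, 8.41 to 15.0), close to the 9.2% of all protein-coding genes. Zinc finger (ZNF) genes had one in 29 of 517 (5.61%, 3.79 to 7.96), none above a height of 13. Mitochondrial ribosomal proteins had one in 1 of 77 (1.30%), MRPS27 at 6. Proteasome (PSM) genes had one in 3 of 40 and RNA helicases of the DDX and DHX families in 4 of 54 (7.41%), DDX17 at 16 and 12 and DDX3X at 15 being the highest. Kinesins had one in 6 of 39, in which all but KIF1A were at 10 or below, integrins in 2 of 23, with 7 peaks of up to 22 in ITGA6, and TMEM genes in 25 of 233 (10.7%). DDX18 itself had 2 peaks, none of them in its 3′ UTR.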
